A study of Mus musculus with 8 samples.

Results

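Transcripts of 9 genes known from rod photoreceptors were followed in RNA of lens fiber cells (FC) from untreated control (Ct) mice and from mice that breathed cigarette smoke (CS). The genes were Gnat1, Gngt1, Pde6b, Pde6g, Sag, Rcvrn, Guca1a, Pdc and Cplx4, which make up 9 of the 35275 genes listed, and each was taken by its gene symbol. They were picked from measured values of these libraries because several of them were higher in every CS-exposed library, so their difference between groups is given as a description, without a test. Lens FC were dissected away from the epithelium in C57BL/6 mice (C57BL/6J in the methods of the study), and each library pooled the FC of 4 mice, right eye only. The methods of the study list male and female replicates in each group. The sex of each library is not given in the sources used here, and sex was not used. CS exposure in a smoke chamber ran from around birth, 5 hours/day and 5 days/week, for 3.5 months, the untreated Ct mice were of the same age and kept without smoke, and each group gave 4 libraries.

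Rods detect dim light. The visual pigment, once activated by a photon, switches on the G protein transducin, transducin releases the inhibitory subunits of a cGMP phosphodiesterase, and the fall in cGMP closes cation channels of the outer segment. Arrestin and guanylate cyclase activators help to end the response, while recoverin prolongs it. Recoverin, phosducin and the cyclase activator are also known from cones.

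The libraries held an estimated 18100000 to 23300000 fragments. Levels are given as FPKM, fragments that is, fragments divided by gene length and by library depth, so that genes can be compared per length. The lengths the authors used are not given in the sources used here, and those that the values imply can differ from the annotated exons (4727 against 8904 bases for Sag), so levels, shares and ratios between genes depend on them. The labelled tissue was borne out by its markers, since 9 lens fiber genes, led by the crystallins Cryaa and Crygs, summed to 173394 to 186801 FPKM in each library, against 5.65 to 76.7 FPKM for the 9 rod genes. Among the libraries, CS replicate 3 stood above and Ct replicate 4 below the others for most of the rod genes. Values without them are given as ranges for the 9 rod genes, and for only some of the other genes.

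The start regions of 3 rod genes are shown because they carry the letters bound by the photoreceptor factors CRX and NRL. Each is the run of 250 bases ahead of the transcript start in RefSeq (GRCm38.p6), 5′ to 3′ on the strand of the gene. Capitals mark GGATTA, a CRX-type motif, and TGCTGA, which is part of the NRL site. Both motifs were searched on both strands, and they do not overlap each other in these windows. Sag is on the plus strand at chr1:87803430-87803679, Guca1a on the minus strand at chr17:47400607-47400856 and Pde6b on the plus strand at chr5:108388123-108388372.
Sag: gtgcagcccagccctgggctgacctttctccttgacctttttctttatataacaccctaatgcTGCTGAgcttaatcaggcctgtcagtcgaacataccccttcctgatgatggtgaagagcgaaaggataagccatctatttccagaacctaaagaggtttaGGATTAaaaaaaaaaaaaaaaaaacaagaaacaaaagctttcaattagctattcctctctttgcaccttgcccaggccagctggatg
Guca1a: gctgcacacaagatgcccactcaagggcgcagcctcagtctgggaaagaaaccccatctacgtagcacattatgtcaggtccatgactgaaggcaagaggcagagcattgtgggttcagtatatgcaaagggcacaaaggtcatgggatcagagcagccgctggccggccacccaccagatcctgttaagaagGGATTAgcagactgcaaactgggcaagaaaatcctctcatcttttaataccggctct
Pde6b: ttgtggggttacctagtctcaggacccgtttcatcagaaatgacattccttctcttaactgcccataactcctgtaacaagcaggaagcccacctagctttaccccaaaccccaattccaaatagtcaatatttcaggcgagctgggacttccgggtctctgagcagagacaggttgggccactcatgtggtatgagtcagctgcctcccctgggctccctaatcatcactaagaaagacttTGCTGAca

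Of the 9 genes, 5 were matched in the promoter table (Sag, Guca1a, Pde6b, Pdc and Gngt1). GGATTA was present in the windows of 3 of these 5 genes, at bases -87 to -82 from the start of Sag, -57 to -52 of Guca1a and -44 to -39 of Gngt1, whose window overlaps a Gngt1 exon in GENCODE. Among all 32851 promoter windows of the same length, 2054 held it (6.25%). TGCTGA was present in 2 of the 5, from base -187 of Sag and from base -8 of Pde6b, against 16.1% of all windows. Pdc held neither. A match of letters is a description and was not tied to binding in the lens.

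The mean of all 9 rod genes was higher in CS-exposed than in untreated Ct mice, by 2.47 times for Pde6b to 4.31 times for Cplx4. In 7 of the 9, every CS-exposed library was above every untreated Ct library, which is the pattern by which several were picked. Such a pattern was found in 1.8% of the 9794 genes that reached a group mean of 1 FPKM. The median difference of the 9 genes was 1.70 on the log2(FPKM + 0.1) scale, a scale that understates the change of low values, and the range was 1.07 to 1.78. Over all tested genes the median difference was 0.0043. In these bulk pools, more cells that hold such transcripts and more of this RNA per cell cannot be told apart, and which cells the transcripts came from was not tested.

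Gnat1 (chr9:107674474-107679712, minus strand) codes for the alpha subunit of rod transducin and was the most abundant of the 9. It measured 9.15, 7.05, 10.1 and 1.80 FPKM in Ct replicates 1 to 4 and 16.7, 22.9, 36.0 and 10.2 FPKM in CS replicates 1 to 4. The groups were all but in contact, as CS replicate 4 at 10.2 FPKM lay just above Ct replicate 3 at 10.1 FPKM. Means were 7.03 ± 3.71 and 21.5 ± 11.0 FPKM (SD, n = 4 per group), a ratio of 3.05 and a log2 difference of 1.70. Between 72 and 1631 reads stood behind these values, the most of any of the 9 genes.

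Gngt1 (chr6:3993792-3997436, plus strand) codes for the gamma subunit of the same G protein. Untreated Ct libraries gave 0.541, 0.647, 0.607 and 0.130 FPKM, and CS-exposed libraries gave 2.12, 1.72, 2.75 and 0.839 FPKM. All CS-exposed libraries were above the untreated ones, and the replicate numbered 4 was lowest in both groups. The means of 0.481 ± 0.238 and 1.86 ± 0.801 FPKM (SD, n = 4 per group) differed by 1.78 on the log2 scale. Ct replicate 4 rested on 7 reads, for which the 95% exact Poisson interval, of counting error only, was 0.0523 to 0.268 FPKM. Gnat1 exceeded Gngt1 by 7.88 to 16.9 times within a library.

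Pde6b (chr5:108388391-108432397, plus strand) codes for the catalytic beta subunit of the rod phosphodiesterase. Its levels were 0.394, 0.669, 0.694 and 0.487 FPKM in untreated Ct libraries and 0.835, 1.12, 2.55 and 1.03 FPKM in CS-exposed libraries. The groups did not overlap, yet 3 of the 4 CS-exposed libraries were close to the untreated ones and CS replicate 3 stood apart. Pde6b had the smallest difference of the 9 genes, with means of 0.561 ± 0.145 and 1.38 ± 0.787 FPKM (SD, n = 4 per group) and a log2 difference of 1.07.

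Pde6g (chr11:120447605-120453500, minus strand) codes for the inhibitory gamma subunit that transducin displaces. Untreated Ct libraries held 1.88, 2.36, 2.24 and 0.590 FPKM, whereas CS-exposed libraries held 3.81, 4.43, 8.36 and 2.59 FPKM. The lowest CS-exposed library, replicate 4, was only slightly above Ct replicate 2. Group means of 1.77 ± 0.811 and 4.80 ± 2.49 FPKM (SD, n = 4 per group) gave a log2 difference of 1.42. Pde6g exceeded Pde6b by 1.21 times in Ct replicate 4 and by 2.52 to 4.77 times in the other libraries.

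Sag (chr1:87803680-87845158, plus strand) codes for rod arrestin, which binds the activated visual pigment and stops it from signalling. It was at 0.936, 0.686, 1.19 and 0.210 FPKM in untreated Ct mice and at 1.66, 2.45, 5.49 and 1.25 FPKM in CS-exposed mice. Here too the edges of the groups nearly met, at 1.25 FPKM in CS replicate 4 and 1.19 FPKM in Ct replicate 3. Means were 0.756 ± 0.418 and 2.71 ± 1.92 FPKM (SD, n = 4 per group), with a log2 difference of 1.68.

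Rcvrn (chr11:67695326-67703333, plus strand) codes for recoverin, a calcium sensor that prolongs the light response. It was found at 2.90, 0.438, 2.81 and 0.691 FPKM in untreated Ct libraries and at 4.51, 6.04, 8.99 and 1.73 FPKM in CS-exposed libraries. Its groups overlapped, since CS replicate 4 was below Ct replicates 1 and 3. Rcvrn also had the widest range within untreated Ct mice, of 6.62 times, and its lowest value came from 9 reads. The means of 1.71 ± 1.33 and 5.32 ± 3.03 FPKM (SD, n = 4 per group) differed by 1.75 on the log2 scale.

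Guca1a (chr17:47394558-47400584, minus strand) codes for a calcium-dependent activator of the retinal guanylate cyclases. In untreated Ct libraries it was almost even, at 0.924, 1.28, 0.988 and 1.40 FPKM, a range of 1.51 times, and CS-exposed libraries gave 3.26, 2.63, 6.94 and 2.18 FPKM. No CS-exposed library came near the untreated ones. Ct replicate 4, the lowest untreated library for 6 of the 9 genes, was the highest for Guca1a. Means were 1.15 ± 0.227 and 3.75 ± 2.17 FPKM (SD, n = 4 per group), a ratio of 3.27 and a log2 difference of 1.50.

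Pdc (chr1:150319417-150333906, plus strand) codes for phosducin, which binds the beta and gamma subunits of transducin. Untreated Ct libraries showed 0.980, 0.699, 0.735 and 0.149 FPKM and CS-exposed libraries 2.12, 2.32, 3.71 and 0.942 FPKM. CS replicate 4 lay just under Ct replicate 1, so that Pdc missed the separation of the groups by a small margin where Gnat1 made it by one. The log2 difference was 1.72, from means of 0.641 ± 0.351 and 2.27 ± 1.14 FPKM (SD, n = 4 per group).

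Cplx4 (chr18:65955722-65970237, minus strand) codes for a complexin of photoreceptor ribbon synapses, where it binds the SNARE proteins of vesicle release. It had the lowest mean of the 9 genes in each group, at 0.373, 0.202, 0.319 and 0.189 FPKM in untreated Ct libraries and 0.974, 1.04, 1.86 and 0.792 FPKM in CS-exposed libraries. The groups were set apart by a gap as wide as 0.373 to 0.792 FPKM, although each untreated value came from only 6 to 13 reads. Cplx4 had the largest ratio of means, 4.31, from 0.271 ± 0.0898 and 1.17 ± 0.476 FPKM (SD, n = 4 per group), and a log2 difference of 1.74. None of the 9 genes shared exonic sequence with a gene that overlaps it in the GENCODE annotation of GRCm38, from which the coordinates were taken.

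**Figure D1:**
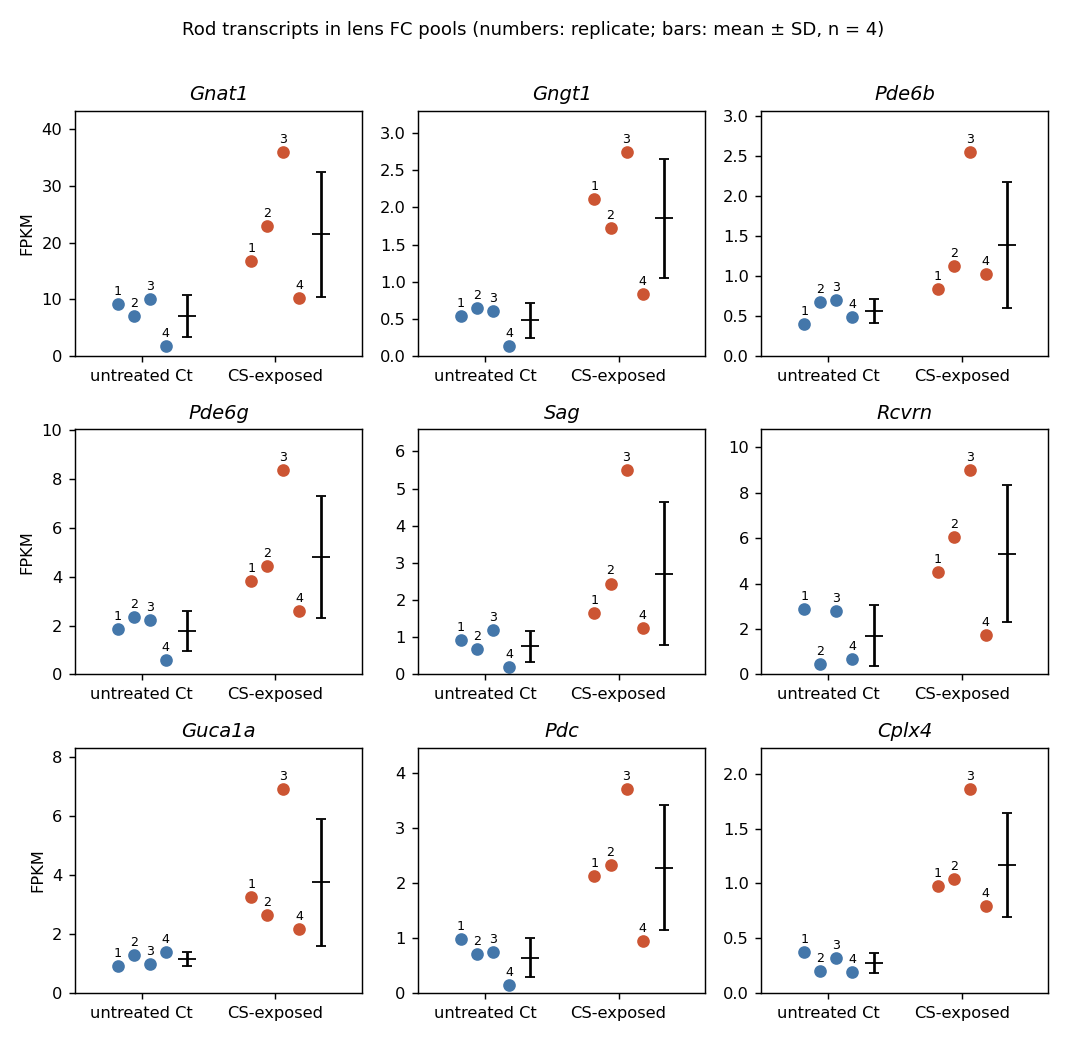
FPKM of each rod gene in every library, by group, with the replicate number above each point and bars for mean ± SD (n = 4). CS replicate 3 is the highest point in all 9 panels, and only Rcvrn and Pdc have a CS-exposed library below an untreated Ct library.

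The order of the levels was led by Gnat1 in both groups, which was above the next gene in 4 of 4 libraries of each group. Among untreated Ct mice, no other neighbours in the order were set apart in all 4 libraries, so the order from Pde6g through Rcvrn, Guca1a, Sag, Pdc, Pde6b and Gngt1 to Cplx4 was not firm. Pde6g and Rcvrn had means of 1.77 and 1.71 FPKM, and Pde6g was the higher of them in 1 library. Among CS-exposed mice, Pde6g was above Guca1a and Guca1a above Sag in 4 of 4 libraries, whereas the remaining neighbours changed places in 1 library each. Rcvrn passed Pde6g and Gngt1 passed Pde6b in the order of CS-exposed mice.

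The summed level of the 9 rod genes was 18.1, 14.0, 19.7 and 5.65 FPKM in untreated Ct libraries and 36.0, 44.6, 76.7 and 21.6 FPKM in CS-exposed libraries. Sums thus did not overlap, but the gap from 19.7 to 21.6 FPKM was small beside the spread within groups (14.4 ± 6.28 and 44.7 ± 23.3 FPKM, SD, n = 4 per group). CS replicate 3 was the highest of its group for 9 of 9 genes, by 0.65 to 1.21 above the group mean on the log2 scale. CS replicate 4 was the lowest for 8 of 9, the exception being Pde6b, which was lowest in CS replicate 1. In untreated Ct mice, Ct replicate 4 was the lowest for 6 of 9 and below the group mean for 8 of 9, whereas the other libraries differed by gene, as Ct replicate 1 was highest for Rcvrn, Pdc and Cplx4 but lowest for Guca1a and Pde6b, and Ct replicate 2 was highest for Gngt1 and Pde6g but lowest for Rcvrn. Without CS replicate 4, all CS-exposed libraries were above all untreated ones for 9 of 9 genes. Such a separation is easier with fewer libraries, and the share of all genes that show it was not counted for this setting. The median log2 difference of the 9 genes was 1.40 without CS replicate 3 and 1.26 without Ct replicate 4. Differences of single genes ran from 0.75 (Pde6b) to 1.56 (Gngt1) without CS replicate 3. Without Ct replicate 4 they ran from 0.99 (Pde6g) to 1.63 (Cplx4).

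Gnat1 made up 46.4% to 51.4% of the summed FPKM of the 9 genes in 7 libraries and 32.0% in Ct replicate 4. In its place Guca1a, which made up 5.01% to 10.1% elsewhere, came to 24.7%. Rcvrn was down to 3.12% in Ct replicate 2, against 8.04% to 16.1% in the other libraries, and Pde6g was up to 16.8% there, against 9.92% to 12.0% elsewhere. In Ct replicate 4, Guca1a rested on 22 reads and Gnat1 on 72, for which the 95% exact Poisson interval of Gnat1 was 1.41 to 2.27 FPKM. No interval was computed for the shares.

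**Figure D2:**
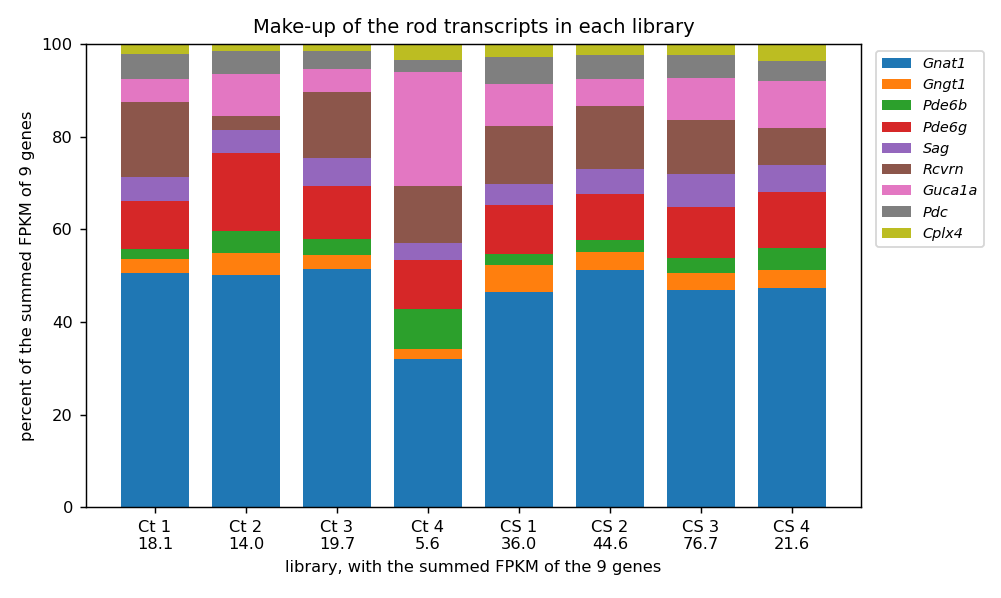
Percent of the summed FPKM of the 9 rod genes that each gene held, as 1 stacked bar per library, with the sum in FPKM under each bar. Gnat1 takes 46.4% to 51.4% of every bar but that of Ct replicate 4, where it takes 32.0%.

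A second group of 36 rod genes, none of them among the 9, was tested as part of all genes with limma. The means of 35 of the 36 were higher in CS-exposed mice, with a median log2 difference of 0.66, where 48.1% of all 21019 genes above 0 in any library had a higher mean. In 7 of 36 every CS-exposed library was above every untreated one, against 1.18% of those 21019 genes. Of the 13 that reached a mean of 1 FPKM in a group, 8 were higher at an unadjusted limma p under 0.05 and 0 were lower, where 2.75% of all tested genes were called higher and 2.08% lower. As 7 of these 13 passed the minimum only through the CS-exposed group, they had to differ, and without a minimum 10 of 36 were called higher and 0 lower, against 2.17% of all genes called higher. None of the 36 passed the adjusted p of 0.05, which 0.0102% of tested genes did. Without CS replicate 3, 5 rod genes were called in place of 8, and the median over the 36 was 0.40.

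Pde6a, the catalytic alpha subunit that pairs with Pde6b, was at 0.694, 0.653, 0.905 and 0.0125 FPKM in untreated Ct libraries and 1.38, 1.597, 3.77 and 1.02 FPKM in CS-exposed ones. It had a log2 difference of 1.83 ± 0.634 (SE; limma, unadjusted p = 0.014, adjusted p = 0.956), and Ct replicate 4 held 1 read. Without that library, the log2 difference was 1.11. Nrl, the transcription factor that sets the fate of rods, measured 1.29, 0.878, 1.19 and 0.274 FPKM in untreated Ct mice and 2.45, 3.02, 6.40 and 1.74 FPKM in CS-exposed mice, again without overlap. Its log2 difference was 1.79 ± 0.443 (SE; limma, unadjusted p = 0.00175, adjusted p = 0.931). Without Ct replicate 4 it was 1.37, and without CS replicate 3 it was 1.44. Both genes passed the minimum of 1 FPKM only through the CS-exposed group, which these p-values do not take into account.

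Prph2, a tetraspanin of the disc rim, was higher by 1.13 and Rbp3, the retinoid carrier of the matrix between retina and pigment epithelium, by 1.16 on the log2 scale, both without overlap of the groups. Tulp1 and Aipl1, needed for protein transport in photoreceptors and for the assembly of the phosphodiesterase, were higher by 1.66 and 1.28, and CS replicate 4 overlapped with untreated libraries in both. Guca1b, the second cyclase activator, was higher by 1.09, and its lowest CS-exposed library of 1.44 FPKM lay within the untreated range of 0.762 to 2.41 FPKM. These 5 genes had an unadjusted limma p of 0.00678 to 0.0357 and an adjusted p of 0.956 each, and all but Guca1b passed the minimum only through the CS-exposed group. Their log2 differences ran from 0.73 (Guca1b) to 1.22 (Rbp3) without Ct replicate 4. Without CS replicate 3 they ran from 0.75 (Guca1b) to 1.38 (Tulp1).

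Among the other tested genes of the rod list, Rom1 and Abca4 had the smallest differences. Rom1, the partner of Prph2 at the disc rim, was at 5.46 ± 0.839 FPKM in untreated Ct mice and 6.02 ± 0.832 FPKM in CS-exposed mice (SD, n = 4 per group), a log2 difference of 0.14. With 1 library left out, it ran from 0.02 (without Ct replicate 4) to 0.19 (without CS replicate 1). Abca4, the retinoid transporter of the disc, had a log2 difference of 0.06, from 1.67 ± 0.304 and 1.74 ± 0.213 FPKM (SD, n = 4 per group). It ran from -0.0047 (without Ct replicate 2) to 0.17 (without Ct replicate 4). Unc119, a carrier of lipid-modified transducin, was at 7.60 ± 1.88 and 11.6 ± 4.12 FPKM (SD, n = 4 per group), a log2 difference of 0.55 (limma, unadjusted p = 0.0618). That difference was 0.37 without Ct replicate 4, 0.39 without CS replicate 3 and 0.83 without CS replicate 4. Reep6 had a log2 difference of 0.32 (limma, unadjusted p = 0.0501), which ran from 0.21 without Ct replicate 4 to 0.44 without Ct replicate 2. Crx, the homeobox factor of photoreceptors, had a log2 difference of 1.31 (limma, unadjusted p = 0.111), which was 0.70 without CS replicate 3 and 0.74 without Ct replicate 4, and reached 2.82 FPKM in CS replicate 3 but 0.253 to 0.649 FPKM in the other CS-exposed libraries, within the untreated range of 0 to 0.775 FPKM.

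**Figure D3:**
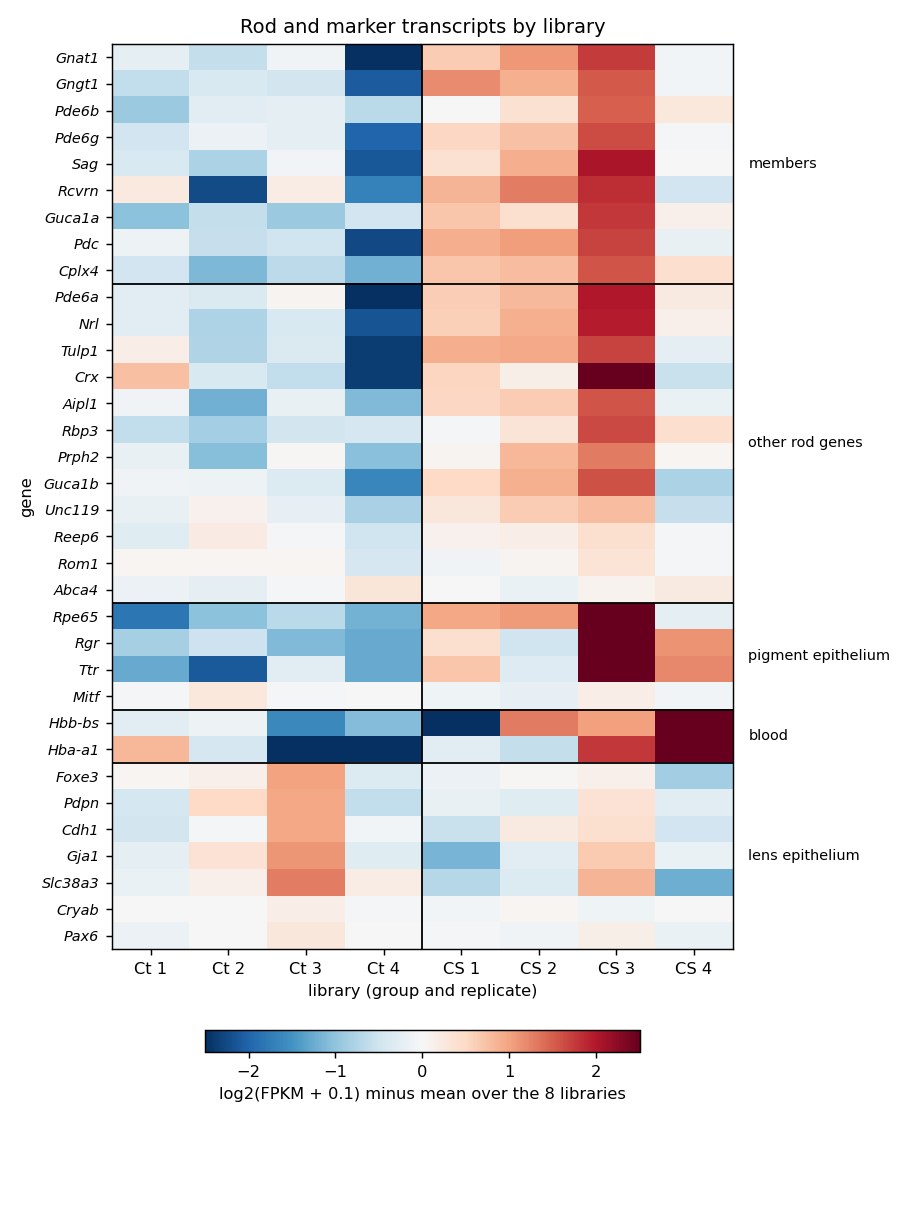
Log2(FPKM + 0.1) of rod genes and markers in each library minus the mean of each gene over the 8 libraries, with red above and blue below that mean and values beyond 2.5 drawn in the end colors. The 9 rod genes (members) are darkest red in CS replicate 3 and mostly darkest blue in Ct replicate 4, Rom1 and Abca4 are near white throughout, and Hbb-bs and Hba-a1 are darkest red in CS replicate 4.

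Relatives of the 9 genes that are known from cones were low. Gnat2, Gngt2 and Pde6h were at most 0.252, 0.204 and 0.0597 FPKM and below Gnat1, Gngt1 and Pde6g in 8 of 8 libraries. Pde6c, at 0.160 to 0.609 FPKM, was below Pde6b, and Arr3, the cone arrestin, at 0.0546 to 0.784 FPKM, below Sag, in 7 of 8 libraries each, the exceptions being Ct replicate 4 in both. Cplx3, the closest relative of Cplx4, was below it in 8 of 8 libraries at 0 to 0.261 FPKM. At these low levels, log2 differences were 1.11 for Cplx3, 0.59 for Pde6c and 0.27 for Arr3. They were -0.27 for Gnat2, -0.13 for Gngt2 and -0.23 for Pde6h. The rod relatives were of another order, as Pde6a was above Pde6b in 5 of 8 libraries and Guca1b above Guca1a in 6 of 8.

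Over the cone list of 11 genes, the median log2 difference was 0.03, 1 gene could be tested and 0 were called in limma at an unadjusted p under 0.05. With 1 library left out, the median ran from 0 to 0.14. The channel genes Cnga3 and Cngb3 were at 0 in every library. The summed level was 7.57 to 9.25 FPKM in untreated Ct mice and 8.15 to 10.2 FPKM in CS-exposed mice, of which Slc24a2, an exchanger that also other neural tissue expresses, held 6.41 to 8.10 FPKM. The 18 markers of bipolar, amacrine, horizontal and ganglion cells had a median log2 difference of 0.13 (0.07 to 0.22 with 1 library left out). Of these, 0 of 3 tested genes were called, Lhx1 was at 0 in every library, and sums were 5.98 to 8.26 FPKM and 7.08 to 8.80 FPKM. At such low levels, with 84.1% of cone values and 80.6% of inner retinal values under 0.5 FPKM, a difference of the size seen for rod genes may not have been detectable.

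Markers of the pigment epithelium, the layer that adjoins the rods, were in part higher in CS-exposed mice. Of 15 markers, 5 could be tested, and 3 of these were higher at an unadjusted limma p under 0.05 while 0 were lower, against 2.75% and 2.08% of all tested genes. Rpe65, the isomerase of the visual cycle, was at 0.0314, 0.127, 0.188 and 0.104 FPKM in untreated Ct libraries and at 0.799, 0.865, 3.31 and 0.289 FPKM in CS-exposed libraries, a log2 difference of 2.34. Like all 9 rod genes it was highest in CS replicate 3. It was lowest of its group in CS replicate 4, as were 8 of the rod genes, and without overlap of the groups, as were 7 of them. Rgr and Ttr differed by 1.85 and 2.44 on the log2 scale and were highest in CS replicate 3 as well, but both were lowest of their group in CS replicate 2 (0.522 and 0.959 FPKM) and next to highest in CS replicate 4 (1.81 and 2.92 FPKM). The groups of Ttr overlapped, as Ct replicate 3 was at 0.988 FPKM. Without CS replicate 3, the log2 differences of Rpe65, Rgr and Ttr were 1.77, 1.26 and 1.74. The pigment genes Dct, Tyrp1, Tyr, Pmel and Mlana were highest in CS replicate 4, where Dct was at 3.52 FPKM, and so was the mean log2 level of the list, at -0.13 against -1.23 to -0.34 in the other CS-exposed libraries. Rpe65, Rgr and Ttr, the 3 called, passed the minimum only through the CS-exposed group and had an adjusted limma p of 0.956. They had to differ, so their count cannot be weighed against the share of all tested genes. Best1, by contrast, was at 0 in every library, and Mitf, which other cells also express, had a log2 difference of -0.11. The list summed to 24.8 to 30.6 FPKM in untreated Ct mice and 29.6 to 45.1 FPKM in CS-exposed mice, and its part in the rod result was not tested.

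Markers of Müller glia were divided. Among 5 tested of 8, Rlbp1, a retinoid-binding protein that the pigment epithelium also makes, was higher by 1.70 on the log2 scale (1.11 without CS replicate 3), at 0.0690 to 0.352 FPKM against 0.334 to 3.45 FPKM (limma, unadjusted p = 0.0177), and Gfap was lower by a log2 difference of -1.45 (-0.91 without Ct replicate 2), at 0.271 to 2.83 FPKM against 0.196 to 0.313 FPKM (limma, unadjusted p = 0.0256). Both had an adjusted p of 0.956, and Rlbp1 passed the minimum only through the CS-exposed and Gfap only through the untreated Ct group. Slc1a3 and Kcnj10 did not exceed 0.0549 FPKM. The summed level of the list, 442.2 to 469.4 FPKM and 441.5 to 490.6 FPKM, was nearly all Dkk3, at 432.5 to 477.4 FPKM.

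All 5 blood markers had a higher mean in CS-exposed mice, with a median log2 difference of 1.37, and of 0.58 without CS replicate 4. The 5 hemoglobin and erythroid genes summed to 0.265 to 1.73 FPKM in untreated Ct libraries and to 0.50, 2.54, 4.23 and 22.8 FPKM in CS-exposed libraries, the last of these in CS replicate 4, which was lowest of its group for 8 of 9 rod genes, though its summed rod level was above every untreated Ct library. Hba-a1 was called higher (log2 difference 2.42, and 1.51 without CS replicate 4; limma, unadjusted p = 0.0378, adjusted p = 0.956), although it passed the minimum only through the CS-exposed group, and its reads can be shared with the near-identical Hba-a2. Leukocyte genes summed to at most 0.640 FPKM and none could be tested, and of 6 markers of iris and ciliary body 0 of 2 tested genes were called, with sums of 275.6 to 322.8 FPKM and 295.6 to 317.3 FPKM that were nearly all Acta2.

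None of the 9 lens fiber genes was called in limma at an unadjusted p under 0.05, and their median log2 difference was 0.02. The 7 genes of the lens epithelium, from which FC were separated, had lower means in CS-exposed mice in 7 of 7 cases, with a median log2 difference of -0.21, and 0 were called. The median absolute difference over all tested genes was 0.084, but these 7 had log2 SDs within groups of 0.079 (Cryab) to 0.77 (Slc38a3). Without Ct replicate 3, 3 of the 7 were higher, 4 were lower and the median was -0.02. With all libraries, Slc38a3 had a log2 difference of -0.71, Gja1 of -0.46 and Foxe3 of -0.42, against -0.40, -0.17 and -0.16 without Ct replicate 3. The mean log2 level of the list was highest in Ct replicate 3, at 5.13, and next in CS replicate 3, the library with the most rod transcripts, at 4.66 against 3.86 to 4.21 in the other CS-exposed libraries. Cryab went the other way and was lowest in CS replicate 3, at 15262 FPKM.

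**Figure D4:**
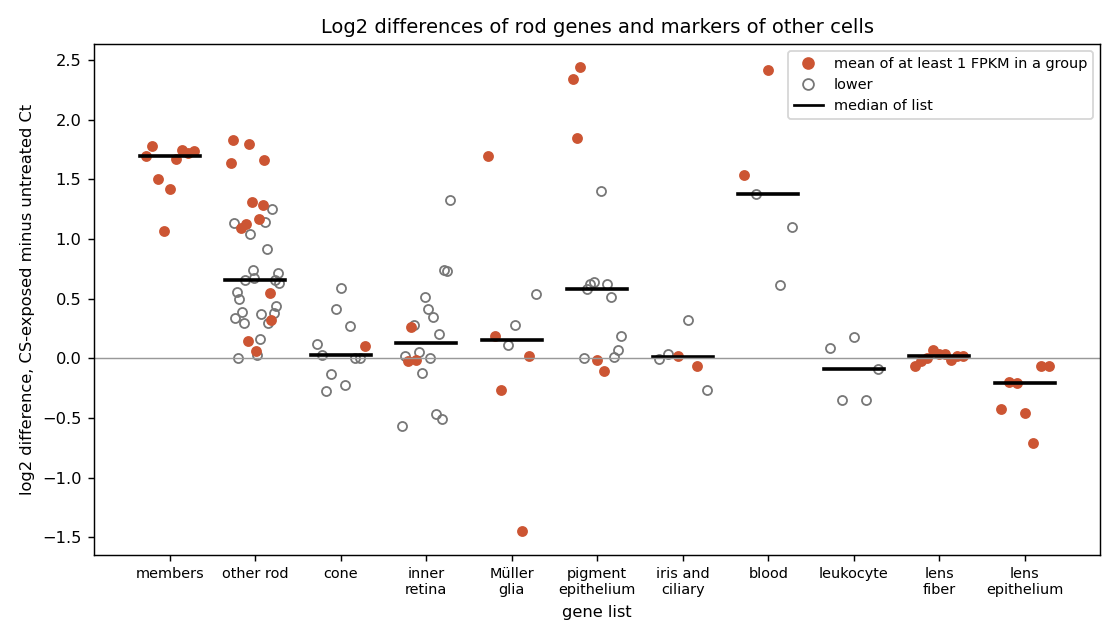
Log2 difference of mean log2(FPKM + 0.1), CS-exposed minus untreated Ct, for every gene of each list, with filled points for genes that reached a mean of 1 FPKM in a group, open points for lower ones, and a bar for the median of the list. The 9 rod genes (members) lie between 1.07 and 1.78 and the other rod genes have a median of 0.66, whereas cone, inner retinal and lens fiber genes have medians of 0.03, 0.13 and 0.02, and the pigment epithelium and blood lists have medians of 0.58 and 1.37, which without CS replicate 4 were 0.35 and 0.58.

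The genes with the pattern most like the 9 rod genes were sought among 9785 other tested genes by Pearson's r over the 8 libraries between the log2 level of the gene and the mean log2 level of the 9. All 8 points share the difference between groups, so r describes both that difference and the spread within groups. Nrl came first (r = 0.992), and Tulp1 (r = 0.962) and Aipl1 (r = 0.951) were also among the first 10, while 30 genes had an r of at least 0.9. Also among the first 10 were Rab23 (r = 0.970), Trappc3 (r = 0.967), the pseudogene Gm11427 (r = 0.952) and Zfp426 (r = 0.949), none of them on any list of markers. These 4 differed between groups by far less than the rod genes, with log2 differences of 0.16 for Trappc3 to 0.50 for Gm11427. Trappc3, a subunit of a vesicle tethering complex, was at 42.0 to 48.6 FPKM in untreated Ct mice and 46.9 to 54.5 FPKM in CS-exposed mice.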

How the data were processed

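RNA of 8 pools of lens FC was sequenced with paired reads of 150 bases. The authors mapped them to GRCm38 with STAR 2.5 and used HTSeq 0.6.1 for counting, and the values they deposited are FPKM of each library. The annotation release and whether counting used strand are not given in the sources used here. The deposited file also holds the authors' own comparison by DESeq2 (log2 fold change, raw and adjusted p-values) and group means, none of which were used.

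Groups and replicate numbers came from the sample titles. Where libraries are replicates, each is a separate pool of 4 mice. The test was run on log2(FPKM + 0.1) of genes that reached a mean of 1 FPKM in a group, with lmFit and eBayes (with a variance trend) of limma 3.58.1 in R 4.3.3, two-sided, with p adjusted by Benjamini-Hochberg across the 9794 genes. The fit was tried on simulated data with the same added variability for every gene, which does not show how it performs for the rod genes. Each read adds a fixed step to the FPKM of a gene in a library, and from these steps whole reads were recovered for 9773 of these genes (99.8%, within 0.05 of a whole number), with a median of 313 reads per gene and library. Fragments per library are estimates that rest on gene lengths of GENCODE M21.

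Named were the 9 rod genes, genes of the rod and cone lists where discussed, other list genes with an unadjusted p under 0.05 or at the extremes of their list, and the 10 genes most like the rod genes. Some genes that fall under this rule are not reported here, though counts, sums and medians of lists include them. Further markers named for context were chosen after their values were seen. The rod genes and all lists were chosen with earlier results of these data known. Alternatives were 2 other pseudocounts, 3 other filters, 3 scalings, 2 variance models, the replicate number as a block, limma-voom on recovered reads, and leaving out each library. Python 3.11.15 was used for all other values and for the figures, with pandas 2.3.3, numpy 2.4.6, scipy 1.17.1 and matplotlib 3.10.9. Protein, metabolite and metal measurements were not analysed here.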

Additional observations from a re-analysis of the deposited data

Results flagged for a closer look

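Of 66 groups of 4 libraries examined, one for each rod gene, tested rod-list gene and list sum in each group, 5 held a library whose gap to the nearest other was a larger part of the range of the group than Dixon's 95% critical value. For independent groups of normally distributed values, chance flags about 1 group in 20, or 3.3 of 66. These groups share libraries, list sums contain the single genes, and FPKM need not be normally distributed. The 5 flags therefore cannot be weighed against that number. In CS-exposed mice, CS replicate 3 stood apart for Pde6b at 2.55 FPKM, for Crx at 2.82 FPKM and for Rbp3 at 2.15 FPKM. CS replicate 4 stood apart for the summed blood genes at 22.8 FPKM. Among untreated Ct mice, Ct replicate 4 stood apart for Rom1 at 4.20 FPKM, on the low side.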

How the results depend on the processing

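All 135 values of the 9 rod genes under the alternatives tried were positive, between 0.56 (Pde6b, pseudocount 1) and 2.20 on the log2 scale (Rcvrn, without CS replicate 4). Those with the replicate block equal the main values by design. With a pseudocount of 1 the median difference of the 9 genes was 0.99, with Gngt1 at 0.92 and Cplx4 at 0.75, as a larger pseudocount compresses low values. Leaving out each library in turn gave a median of 1.26 to 1.95, 7 to 9 genes with no overlap of groups, 5 to 11 further rod genes called (5 without CS replicate 3), 4 to 7 calls among markers of other cells, and 418 to 525 genes called in all, against 473 as reported. The 9 with no overlap came without CS replicate 4, where the further rod genes with no overlap rose from 7 to 14. The share of all genes with no overlap was not counted in these settings. With no minimum FPKM, 862 genes were called. The 6 calls among markers of other cells became 3 with a minimum of 1 FPKM over all libraries and 10 with limma-voom on recovered reads. With FPKM scaled to genes other than crystallins, 6 of the 9 genes had no overlap, Gnat1 being lost. The share of higher among all calls was 56.9%, and it was 41.1% with that scaling, 43.5% without CS replicate 3, 48.2% without Ct replicate 4, 50.4% with median centring, 51.3% with limma-voom and 50% without a variance trend, the higher calls among rod genes being 5 to 11 and the lower 0 in each. The adjusted p of 0.05 was passed by 0 to 5 genes.

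Same-numbered libraries of the groups correlated by 0.01 to 0.16 in their deviations (mean 0.09, against -0.03 for other numbers), and 3 of 4 Ct libraries were closest to their own number. As not every correlation was over 0.1, the numbers were not taken to pair the libraries. With the replicate block, 522 genes were called in all, 10 of the further rod genes and 8 markers of other cells, and the median difference of the 9 rod genes stayed 1.70.

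With 6 to 13 reads for Cplx4 and 16 to 22 for Guca1a in untreated Ct libraries, counting error limits these levels, and intervals cover counting error only. The rod genes were picked on the contrast described, so stability under the alternatives adds no support.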
